A study of Neurospora crassa with 20 samples.

Results

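Long domains of histone H3 trimethylated at lysine 9 (H3K9me3) were examined in the filamentous fungus Neurospora crassa. They were chosen by length alone: a long domain is any peak of the H3K9me3 list from wild type (WT) in the dark that spans at least 5 kb. The list held 691 peaks, of which 246 met this rule, and 234 of the 246 lay on the supercontigs that make up chromosomes I to VII of the NC12 build (chrI to chrVII). Each domain was then followed into the H3K9me3 lists of the other 3 conditions, to ask whether it was still called, where its edges fell, and whether it was broken up or joined to a neighbour. Length in WT in the dark is therefore not a result.

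H3K9me3 marks constitutive heterochromatin. In N. crassa the mark is laid down by KMT1/DIM-5, is bound by heterochromatin protein HP1 and directs cytosine methylation by DIM-2. The regions that carry it are mostly A:T-rich relics of repeat-induced point mutation (RIP), a process that riddles repeated DNA with C-to-T mutations, and they include the centromeres and telomeres. H3K4me3, laid down by KMT2/SET-1, marks nucleosomes near the start of transcribed genes.

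The series measured both marks by chromatin immunoprecipitation and sequencing (ChIP-seq) in mycelia, in 20 samples of 10 conditions with 2 replicates each. The WT and Δkmt2/Δset-1 strains were profiled for H3K9me3, and WT and Δkmt1/Δdim-5 for H3K4me3, each after 24 h in the dark (DD) or with a further 30 min of light before harvest (LP30). Both mutants are knockouts backcrossed to the WT strain. The Δkmt1/Δdim-5 DD ChIP was the control for every H3K9me3 list and the Δkmt2/Δset-1 DD ChIP for every H3K4me3 list, so all H3K9me3 lists share 1 control. Each of the 8 deposited lists pools its replicates. Replicate spread was therefore not available and conditions could not be tested against each other. The read total behind each list is not in the files, and all counts below describe the lists. A region without a peak did not pass the caller's permissive cutoff, which does not show that the mark is absent there.

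The 246 long domains were 35.6% of the WT DD peaks but held 6.973 Mb of their 7.709 Mb, or 90.5% of all bases under H3K9me3 peaks. Their median length was 15357 bp, the middle part of the distribution ran from 9403.5 bp at the lower quartile to 27971.25 bp at the upper quartile, and the longest measured 348352 bp. By length, 65 domains were under 10 kb, 83 between 10 and 20 kb, 75 between 20 and 50 kb, 13 between 50 and 100 kb, and 10 measured 100 kb or more. Fold enrichment over the control, which the caller averages over the peak, ranged from 1.11 to 4.38 with a median of 2.11. It did not follow length: the median was 1.81 under 10 kb, 2.31 between 10 and 20 kb, 2.22 between 20 and 50 kb, 2.12 between 50 and 100 kb and 1.86 at 100 kb or more.

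The shortest domains just inside the limit spanned 5028 bp (chrI:5077719-5082746, fold enrichment 1.93), 5067 bp (chrIII:5045891-5050957, fold enrichment 2.03) and 5153 bp (chrV:6215294-6220446, fold enrichment 1.17). Peaks of 4955 bp (fold enrichment 1.12), 4945 bp (fold enrichment 1.90) and 4898 bp (fold enrichment 1.78) fell just outside it. The limit thus cut through peaks of like enrichment.

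Fold enrichment separated the long domains into a large and a small set, and this division, drawn at the caller's q of 0.01, was made after the values were seen. In 221 domains, called strong here, q was under 0.01 and fold enrichment ran from 1.26 to 4.38. In the other 25, called weak, q was 0.01 or more and fold enrichment lay between 1.11 and 1.19. The weak domains were short, with a median of 6625 bp against 17317 bp in the strong set, though the longest reached 25412 bp. Together they spanned 195.0 kb. They lay on chromosomes III to VII, with 6 each on III, IV and VI, 3 on V and 4 on VII, and on none of the smaller supercontigs.

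**Figure D1:**
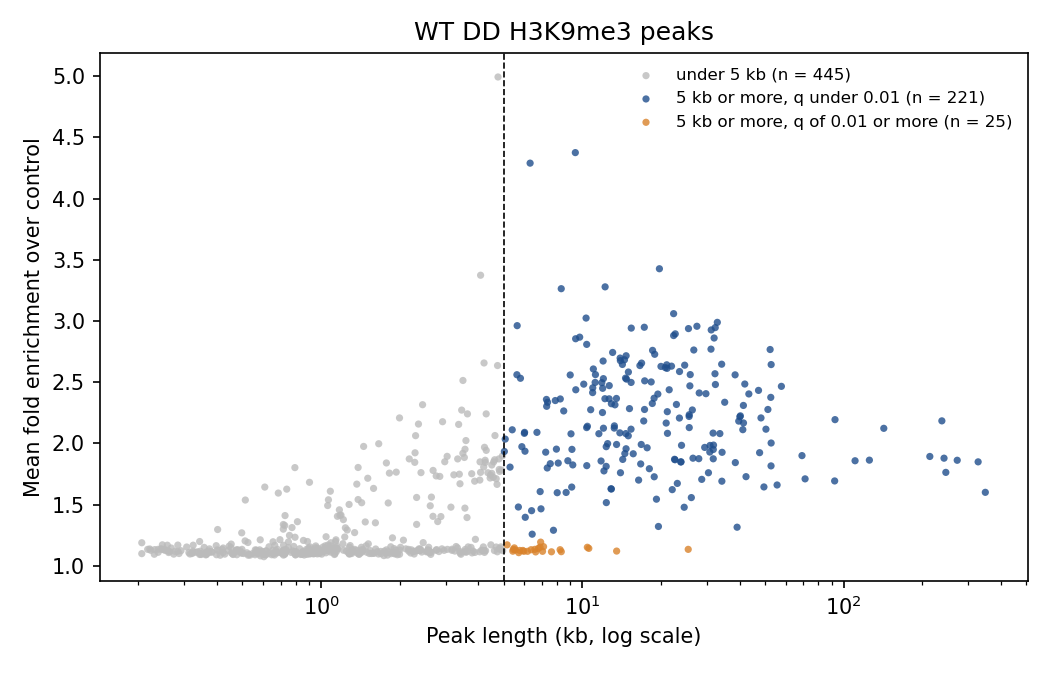
Length of each WT DD H3K9me3 peak (kb, log scale) against its mean fold enrichment over the Δkmt1/Δdim-5 control; each point is a peak, the dashed line marks 5 kb, and colours give the 445 shorter peaks, the 221 long domains with q under 0.01 and the 25 with q of 0.01 or more. The weak long domains form a flat band between 1.11 and 1.19, the continuation of the band of weak shorter peaks.

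The longest domain of each chromosome measured 237.5 kb on chromosome I (chrI:3735097-3972634), 271.9 kb on II (chrII:1093920-1365856), 242.1 kb on III (chrIII:723232-965320), 213.6 kb on IV (chrIV:874574-1088189), 327.0 kb on V (chrV:891579-1218530), 246.0 kb on VI (chrVI:2783068-3029036) and 348.4 kb on VII (chrVII:2134736-2483087). The longest domain made up 17.8% of the long-domain bases of chromosome I and 41.0% of those of chromosome VII. N. crassa centromeres are known as the longest A:T-rich stretches of each chromosome, but the annotation used here does not mark them, and their overlap with these domains was not tested.

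Between neighbouring long domains lay 227 gaps, with a median of 77.5 kb, a lower quartile of 29.2 kb and an upper quartile of 177.0 kb. Spacing differed between chromosomes. Chromosome VI had 7.59 domains per Mb and a median gap of 35.9 kb, chromosome VII 7.05 per Mb and 76.6 kb, and chromosome III 6.83 per Mb and 55.3 kb. Chromosome I had 4.49 per Mb and 73.8 kb, chromosome V 5.28 per Mb and 94.9 kb, chromosome II 5.36 per Mb and 111.2 kb, and chromosome IV 5.67 per Mb and 94.8 kb. In number the domains were thus densest on VI and sparsest on I, where a stretch of 1698.2 kb held none. By length covered the order differed, with the highest share on VII, 849.4 kb of 4.26 Mb, against 746.9 kb of 4.22 Mb on VI and 1330.9 kb of 9.8 Mb on I, lengths being counted to the last annotated gene or peak.

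Close pairs were few. Only 15 of the 227 gaps were under 5 kb and 7 were under 2 kb, with 836 bp as the smallest, while 49 gaps measured 200 kb or more. The smallest distance between any neighbouring peaks of the WT DD list was 833 bp, so shorter breaks could not be seen. A gap held at least 1 shorter H3K9me3 peak in 138 cases and none in 89. The 12 long domains on 11 smaller supercontigs, 560.7 kb in all, had fold enrichments of 1.69 to 4.38 and were covered to at least 97.0% in every other list.

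**Figure D2:**
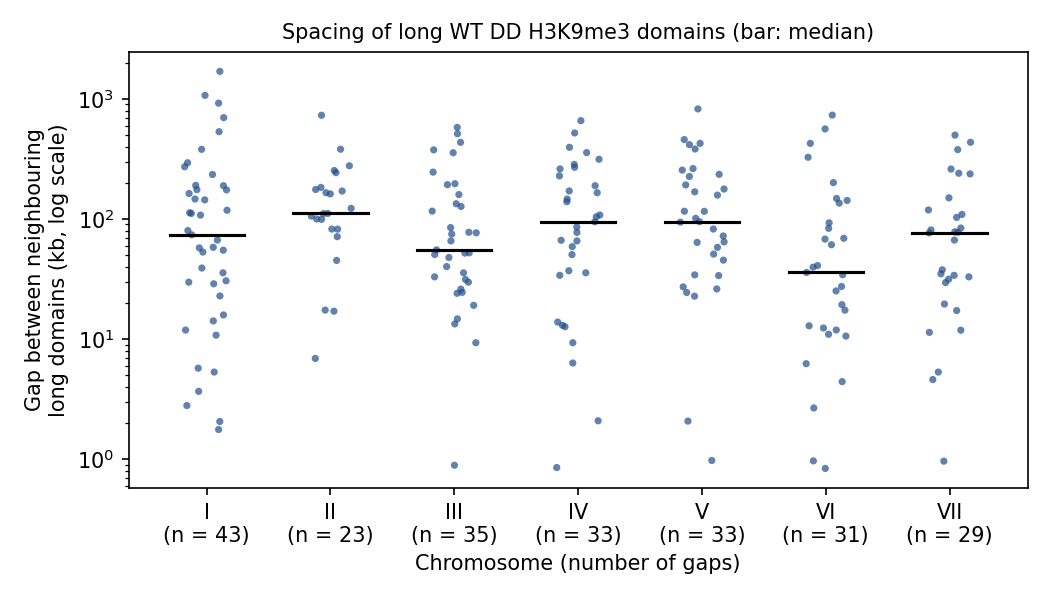
Distance between neighbouring long WT DD H3K9me3 domains, edge to edge, in kb on a log scale for each chromosome; each point is a gap and the bar is the median of the chromosome. Medians run from 35.9 kb on chromosome VI to 111.2 kb on chromosome II, and single gaps from 836 bp to 1698.2 kb.

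Genes set the strong and weak domains apart, a readout the rule did not use. The 209 strong domains on the chromosomes covered 6.217 Mb and touched 130 annotated genes, of which 47 lay wholly inside, or 7.56 genes per Mb, and 119 of the 209 touched no gene. The 25 weak domains covered 0.195 Mb and touched 84 genes. In them 59 genes lay wholly inside, or 302.63 per Mb, and none of the 25 was free of genes. Outside any WT DD H3K9me3 peak the chromosomes held 297.52 genes per Mb, and in shorter peaks 83.40 per Mb lay wholly inside. The measures differ, as genes outside were those that touched no peak, while a short region holds fewer genes whole than it touches. Shorter peaks, for example, touched 270 genes and held 61 whole. By these counts gene density in the weak domains was close to that of unmarked chromosome, and in the strong domains a small part of it. The widest weak domain (chrIV:318674-344085, 25412 bp, fold enrichment 1.13) lay over 11 genes, NCU07626 to NCU07635 and NCU15138.

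H3K4me3 was nearly missing from both sets. In WT DD, H3K4me3 peaks covered 0.313% of the bases of the strong chromosomal domains and none of the weak, against 19.5% of the chromosome outside H3K9me3 peaks. In WT LP30 these shares were 0.392%, 0 and 19.2%. In the Δkmt1/Δdim-5 strain, which lacks H3K9 methylation, H3K4me3 peaks covered 0.850% of the strong domains in DD and 0.533% in LP30. Again no base of a weak domain was covered. Over all long domains the Δkmt1/Δdim-5 shares were 0.791% in DD and 0.49% in LP30. With an H3K4me3 q under 0.01 they fell to 0.497% and 0.318%, against 0.265% and 0.317% in WT. The Δkmt1/Δdim-5 peaks in long domains, unfiltered, had a median fold enrichment of 1.26 in each list, against list medians of 1.58 and 1.6. Of the 58 protein-coding genes wholly inside a weak domain, 0 had an H3K4me3 peak in any of the 4 lists, against 47.5% of the 9280 protein-coding genes outside H3K9me3 peaks in WT DD. H3K9me3 peaks under 5 kb were alike. Of 48 protein-coding genes wholly inside them, 1 had an H3K4me3 peak in WT DD and 0 in the other lists. H3K4me3 covered 0.868% of their bases in WT DD and 0.966% in WT LP30. The lack of H3K4me3 was thus not particular to the long domains. The weak domains thus resembled unmarked chromosome in gene density, as counted above, but not in H3K4me3, a description for which no test was run.

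Of the long domains 27 held an H3K4me3 peak in WT DD, where 7.38% of all 691 H3K9me3 peaks held one. In WT LP30 the count was 42 (9.26% of all peaks). The Δkmt1/Δdim-5 lists placed an H3K4me3 peak in 47 domains for DD (10.1%) and in 39 for LP30 (8.25%). A longer region has more room to meet a peak, so these counts were not read against the background shares. Over all supercontigs the share of long-domain bases under H3K4me3 was 0.288% in WT DD and 0.388% in WT LP30. A single domain decided the first value: without it the shares were 0.145% and 0.245%.

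That domain (chrVI:309478-321695, 12218 bp) lies over NCU09968 and sly-1 (NCU09969), which belong to a transposon. H3K9me3 fold enrichment was 3.28 in WT DD and 3.32 in WT LP30, where the peak ran from 309492 to 321750. In the same place the H3K4me3 peak was 8473 bp wide with a summit fold enrichment of 96.88 in WT DD, and 8457 bp wide with 89.70 in WT LP30, against list medians of 1.73 and 1.64. In Δkmt2/Δset-1 the long H3K9me3 domain was gone. What remained was a peak of 1182 bp at its right end in DD (chrVI:321083-322264, fold enrichment 1.18) and of 1196 bp in LP30 (chrVI:320764-321959, fold enrichment 1.21), which covered 5.0% and 7.6% of the WT DD domain.

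The control signal was low over part of this domain. At a narrow peak's summit the pileups, that is the numbers of overlapping fragments, can be solved from the fold enrichment and the p-value. In WT DD the ChIP pileup was 421 fragments, while the control value that macs2 had used, from Δkmt2/Δset-1, was 3.36, against a median control value of 220 over the list. In WT LP30 the values were 427 and 3.77. The median ChIP pileups of the WT DD and WT LP30 lists were 401 and 403, near the values here. The high summit fold enrichments of this domain thus reflect its low control values and not an unusual ChIP pileup. At the domain's right, between 319383 and 319883, the control value of WT DD was 57.4. Toward its left the control values were higher as well, 39.7 at a Δkmt1/Δdim-5 DD peak between 310994 and 311388, where the ChIP pileup was 82 fragments. In Δkmt1/Δdim-5 DD the ChIP pileups were 22 and 39 fragments at the summits of the peaks between 314253 and 315443, against a list median of 407. The same strain was the control of the H3K9me3 lists, so the fold enrichment of this domain rests on it. Whether the sequence is present in the mutant strains was not tested, so loss of the mark and loss of the DNA cannot be told apart here.

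Few other genes inside long domains had an H3K4me3 peak in WT. NCU16528 lies inside the longest domain of chromosome II and had H3K4me3 summit fold enrichments of 4.23 in WT DD and 3.92 in WT LP30 (chrII:1151971-1155104 in DD). Control values there were 83.2 and 89.0, under the list medians of 220 and 234, and neither Δkmt1/Δdim-5 list had a peak over the gene. NCU10069, inside a domain of chromosome I, had 1.82 in both WT lists, with control values of 200 and 210, and 1.33 and 1.38 in Δkmt1/Δdim-5 DD and LP30. NCU01153, on chromosome V, had 1.17 in WT DD and no peak in the other lists. With NCU09968 and sly-1 these are all the genes wholly inside a long domain that had a WT H3K4me3 peak.

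Following the domains into WT LP30 answered how they looked after 30 min of light in the same strain. None of the 246 was without an LP30 peak, while 16.6% of all 691 WT DD peaks were, all of them shorter than 5 kb. A match needs only 1 bp, and a longer region has more room to meet a peak. This count was therefore not read against the background share. LP30 peaks covered 98.67% of the long-domain bases. The strong domains were covered to 99.26%, with a median of 99.8% per domain and a minimum of 73.8%. The weak domains were covered to 78.17%, with a median of 78.2% and a range of 60.4% to 99.4%. The strong domains thus kept nearly all their bases in the LP30 list, and the weak ones were called over less of their length. The weak set holds the long calls of lowest enrichment in WT DD. Contrasts between weak and strong domains in coverage, splits and fusions are therefore not independent of how the sets were drawn.

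Splits followed the same division. In WT LP30, 25 long domains were covered by 2 or more peaks, where 6.66% of all WT DD peaks were split, and 16 of the 25 were weak. That is 64.0% of the weak domains and 4.1% of the strong, a contrast that carries the limit just given. Fusions with another WT DD peak were 5 (2.75% of all peaks), all of weak domains, across gaps of 836 to 974 bp. Among the weak domains, those in most pieces were chrIV:175430-186012 and chrIV:318674-344085, each in 4 pieces. The first was cut down from 10583 bp to pieces of 673, 1181, 2911 and 2180 bp, over NCU07592 to NCU07595. In both Δkmt2/Δset-1 lists each was called in 1 piece again, of 10962 and 10715 bp for the first and of 26204 and 25429 bp for the second.

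Among strong domains the longest of all, on chromosome VII, was split most. In WT LP30 it was called as 4 peaks of 101263, 12347, 28621 and 203083 bp, with fold enrichments of 1.45, 1.30, 1.39 and 1.60, and gaps of 1063, 1132 and 850 bp that touch no annotated gene. In Δkmt2/Δset-1 it was called whole, as 348321 bp in DD and 348323 bp in LP30. The longest domain of chromosome II was split as well, at NCU16528, with a gap of 859 bp (chrII:1151428-1152286) in WT LP30. The longest domains of the other chromosomes were in 1 piece in WT LP30, of 237.5 kb on I, 241.6 kb on III, 213.7 kb on IV, 326.9 kb on V and 244.5 kb on VI. Of 13 gaps within strong domains in WT LP30, 2 held a WT DD H3K4me3 peak, the one at NCU16528 and one of 814 bp over NCU08521 on chromosome III.

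**Figure D3:**
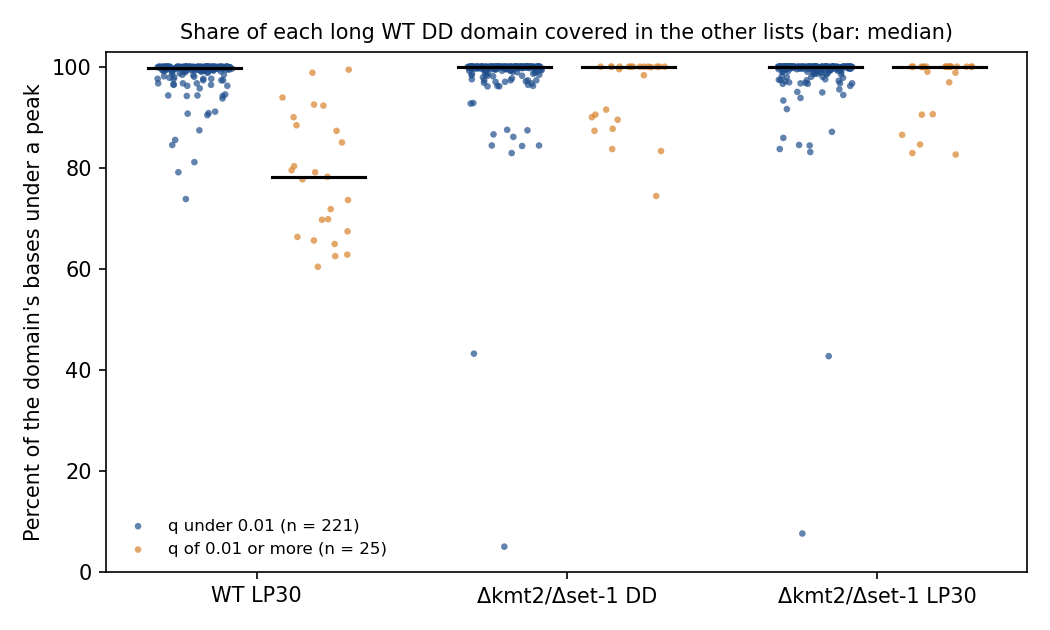
Percent of each long WT DD domain's bases under a peak of WT LP30, Δkmt2/Δset-1 DD and Δkmt2/Δset-1 LP30, for 221 strong domains (q under 0.01) and 25 weak domains (q of 0.01 or more); points are domains, bars are medians. The weak domains spread from 60.4% to 99.4% in WT LP30 with a median of 78.2%, while medians are 99.8% or more in every other column, and the points at 5.0% and 7.6% are the domain over NCU09968.

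Following the domains into Δkmt2/Δset-1 answered what became of them without the H3K4 methyltransferase. Again none was without a peak, where 14.6% of all WT DD peaks had none in Δkmt2/Δset-1 DD and 15.1% had none in Δkmt2/Δset-1 LP30. The same limit of a 1 bp match applies. The long-domain bases were covered to 99.04% in DD and 99.08% in LP30. Strong domains had 99.15% and 99.16% of their bases covered, weak domains 95.28% and 96.51%. In each mutant list 2 domains were covered to less than 50%: the domain over NCU09968 above, and a domain that holds NCU01153 (chrV:3042074-3048498, 6425 bp, fold enrichment 1.26).

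The domain at NCU01153 had the lowest fold enrichment of the strong set. In WT LP30 it was split into peaks of 3135 and 1946 bp. In Δkmt2/Δset-1 its right part was missing, with a single peak of 2773 bp in DD (chrV:3042147-3044919, fold enrichment 1.17) and of 2742 bp in LP30 (fold enrichment 1.17), covering 43.2% and 42.7%. The next lowest shares in the mutant were of a weak domain over NCU05105, NCU05106 and NCU05107 (chrVI:3721174-3728097, fold enrichment 1.19), with 74.4% covered in DD and 82.6% in LP30. In WT LP30 it was covered to 69.8%.

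Splits were counted in the same way. In Δkmt2/Δset-1 DD, 9 long domains were split (1.74% of all peaks), 6 strong and 3 weak, and in LP30, 7 were split (1.88%), 5 strong and 2 weak. Against the 25 of WT LP30 these are fewer, but with q under 0.01 required in both lists the counts were 4 in WT LP30, 4 in the mutant in DD and 5 in the mutant in LP30. Of the 25 domains split in WT LP30, 22 were in 1 piece in both mutant lists. The 4 strong domains split in both mutant lists included 3 that broke at a place where WT had an H3K4me3 peak. At NCU16528 the mutant gap was 3631 bp in DD (chrII:1151432-1155062) and 3641 bp in LP30, and it left peaks of 57269 and 211119 bp in DD. H3K4me3 control values there, from the same mutant, were 83.2 and 89.0 for the WT DD and LP30 lists, under the list medians. Whether the sequence is present in the mutant was not tested. At NCU10069 the gaps were 865 bp (chrI:4334225-4335089) and 890 bp. Near the right end of a domain of supercontig 12.8 they were 2747 bp (12.8:88416-91162) and 2686 bp, and a peak of 1181 bp remained beyond the gap in DD. The H3K4me3 peak there was weak, with fold enrichments of 1.15 in WT DD and 1.16 in WT LP30. Its control values, 298 and 311, were over the list medians. The fourth broke by 878 and 983 bp on chromosome VII, away from genes and from H3K4me3.

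Fusions were more frequent. In Δkmt2/Δset-1 DD, 28 long domains shared a peak with another WT DD peak (21.6% of all peaks), and in LP30, 30 did (22.0%), against 5 in WT LP30. The share among long domains, 11.4% and 12.2%, was below the background. It was uneven: 14 of 25 weak and 14 of 221 strong domains were fused in DD, 56.0% and 6.3%, and 18 weak and 12 strong in LP30, 72.0% and 5.4%. In all, 26 domains were fused in both mutant lists. Only 10 in DD and 13 in LP30 were joined to another long domain, and the rest to a shorter peak. With q under 0.01 required in both lists, fusions were 6 in the mutant in DD, 6 in the mutant in LP30 and 0 in WT LP30.

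Weak domains could lie in much longer mutant peaks, which also took in neighbouring WT DD peaks. On chromosome V, neighbouring weak domains of 7103 bp (chrV:648520-655622, over NCU08912 and NCU16928) and 6625 bp (chrV:656597-663221, over NCU16929 and NCU16930) lay in a single peak of 26907 bp in Δkmt2/Δset-1 LP30. In Δkmt2/Δset-1 DD the same stretch was called as peaks of 14696 and 11400 bp, and in WT LP30 the gap of 974 bp between the domains was closed too, by a peak of 7724 bp. A weak domain of 5153 bp (chrV:6215294-6220446, over NCU07217 and NCU07218) lay in peaks of 22227 bp in DD and 22334 bp in LP30.

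The longest gap joined to a long domain was 4595 bp, between weak domains on chromosome VII (chrVII:911528-919746, over NCU09585 to NCU09590, and chrVII:924342-929831, over NCU12036, NCU12039, NCU17180 and NCU17181). They lay in a peak of 44838 bp in Δkmt2/Δset-1 DD, which also took in a strong domain, and in a peak of 18429 bp in LP30. Among strong domains the longest joined gap was 3284 bp, over NCU00995 on chromosome I (chrI:6454220-6457503), and it was closed in both mutant lists, where the domain grew from 71164 bp to 74867 and 74841 bp. Next came 3191 bp over NCU09966 on chromosome V (chrV:6063982-6067172), also closed in both lists.

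The longest domains of chromosomes III and VI were among the fused. On III the 242.1 kb domain and its neighbour of 39091 bp (chrIII:683252-722342), 889 bp apart, became 1 peak of 281875 bp in DD and 281411 bp in LP30. On VI the 246.0 kb domain and the next long domains to its right became 1 peak of 296391 bp in DD and 296397 bp in LP30. The joined gaps there, of 1388, 947 and 966 bp, touch no gene. No gap that a mutant list closed beside a long domain held an H3K4me3 peak of WT DD or WT LP30, among 15 such gaps beside strong and 19 beside weak domains in DD, and 13 and 21 in LP30. Of these, 9, 17, 8 and 18 lay over a gene. How often gaps of like length that were not joined held an H3K4me3 peak was not counted. A link between H3K4me3 and joining was therefore not tested.

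**Figure D4:**
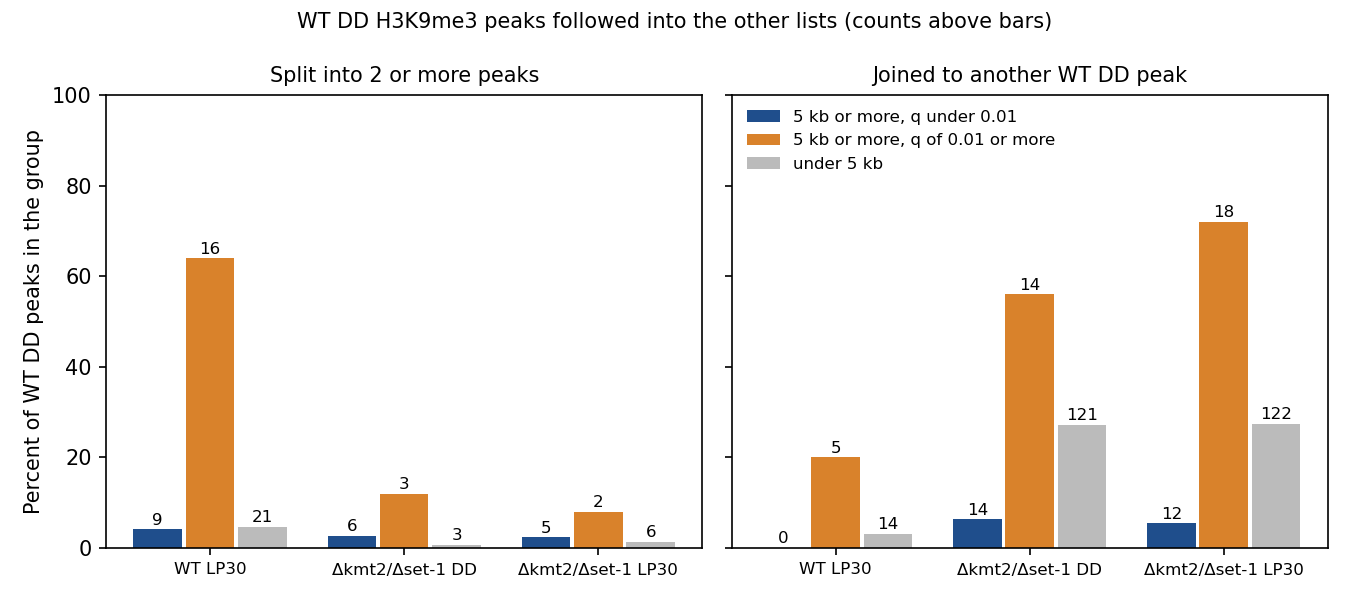
Percent of WT DD H3K9me3 peaks that were split into 2 or more peaks (left) or joined to another WT DD peak (right) in each other list, for strong long domains (n = 221), weak long domains (n = 25) and peaks under 5 kb (n = 445), with counts above the bars. Weak domains were split in 64.0% of cases in WT LP30 and joined in 56.0% and 72.0% in Δkmt2/Δset-1, against 4.1%, 6.3% and 5.4% of strong domains.

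Edges were compared wherever an end of a domain was not merged with a neighbour, and were counted as moved when the outer end of the followed peaks lay more than 500 bp away. Moves are given in bp, positive outward and negative inward. Most edges stayed where they were. In WT LP30, 375 of 486 edges, 77.2%, lay within 100 bp of the WT DD edge. In Δkmt2/Δset-1 this held for 320 of 454 edges in DD, 70.5%, and for 311 of 452 in LP30, 68.8%. The median move was -16 bp in WT LP30 and 0 in both mutant lists.

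After light in WT, moves were mostly inward. In WT LP30, 30 of 486 edges moved inward (6.2%), where 9.36% of all followed edges did. Outward moves numbered 7 (1.4%), against 3.98% of all followed edges. Both shares were below those of all peaks, among which inward moves were also the more frequent. Choosing domains by their length in WT DD favours inward moves in any other list. Counted from the long LP30 peaks instead, 22 edges lay inward of WT DD and 9 outward. The inward moves summed to 28.0 kb and the outward to 5.5 kb. The farthest were -2111 bp at the left edge of chrIII:4573450-4597405, -2093 bp at the right edge of the weak domain over NCU05105, and -2065 bp at the right edge of chrVI:432725-446994, which lies at NCU04702. The largest outward moves were 1211 bp on chromosome II (chrII:390589-400976), 1023 bp on V (chrV:493024-508407) and 719 bp on VII (chrVII:1117480-1149649).

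In each Δkmt2/Δset-1 list outward moves outnumbered inward ones. Among edges that moved the same way in both lists the balance was reversed, with 18 outward and 26 inward. In DD, 41 edges moved outward (15.9% of all followed edges) and 32 inward (7.99%), and in LP30, 32 outward (14.8%) and 30 inward (8.26%). In percent of the long-domain edges these were 9.0% and 7.0% in DD and 7.1% and 6.6% in LP30. Edges of the long domains moved outward less often than those of all peaks, which include the short ones. Outward moves summed to 64.1 kb in DD and 52.6 kb in LP30, inward moves to 43.0 and 40.4 kb. In DD 37 of 425 edges of strong domains (8.7%) and 4 of 29 of weak domains (13.8%) moved outward, and in LP30 29 of 427 and 3 of 25.

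Edges that moved outward in both mutant lists numbered 18, which is 43.9% of the outward edges of the DD list and 56.2% of those of the LP30 list. Both lists share their control, so this overlap is not independent. Of the 18, 16 lay within 500 bp in WT LP30, 1 had moved outward there too and 1 inward. The newly covered stretches measured 505 to 9277 bp with a median of 913.5 bp, 32.6 kb together. They touched a gene in 12 cases and held a WT DD H3K4me3 peak in 1 case, at NCU04689 on chromosome VI. The next H3K4me3 peak outside these 18 edges was a median of 8723 bp away in WT DD, with quartiles of 4089.5 and 18982 bp. For the other 440 edges on the chromosomes the median was 5905 bp and the quartiles 1541 and 15667.25 bp, so the ranges overlapped widely.

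The farthest outward move was of the left edge of a short domain on chromosome II (chrII:571954-577342, 5389 bp, fold enrichment 2.11). It moved by 9305 bp in DD and 9277 bp in LP30, so that the peak measured 14700 and 14641 bp and took in NCU03472 to NCU03476, 5 neighbouring genes. In WT LP30 the move of the same edge was -680 bp. Second was the left edge of chrVII:3677852-3703716 on chromosome VII (fold enrichment 2.56), which moved by 6550 bp in DD and 7254 bp in LP30 over NCU08186, NCU08187 and NCU08188. In WT LP30 its move was -35 bp. Other moves depended on the list: the left edge of chrII:874048-883093 moved outward by 4482 bp in DD and 926 bp in LP30, near NCU03390, and the right edge of chrV:6139905-6152396 by 169 bp and 4322 bp.

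Inward moves recurred more between the mutant lists. Of the 32 inward edges of the DD list 81.2%, and of the 30 of the LP30 list 86.7%, were inward in both, 26 edges in all. Both lists share their control and were measured from the same WT DD edges, so this overlap is not independent either. In 13 of the 26 cases the edge was more than 500 bp inward in WT LP30 as well. Examples are the right edge of chrIII:2965820-2975242, with moves of -1457 bp in WT LP30, -1472 bp in the mutant in DD and -1463 bp in the mutant in LP30, and the left edge of chrVI:3506306-3537938, with -1048, -1018 and -1048 bp. Such edges lay farther out in WT DD than in the other 3 lists. In Δkmt2/Δset-1 only, the domain chrIII:5060274-5091007 on chromosome III drew in on both sides, with moves of -2026 bp in DD and -2032 bp in LP30 on the left and of -2755 and -2764 bp on the right, to 25953 and 25938 bp. In WT LP30 its outer edges stayed, but the left 914 bp were cut off by the gap at NCU08521. The farthest inward moves, -11605 and -11286 bp, were at the left edge of the domain over NCU09968, followed by -3579 and -3215 bp at the right edge of the domain at NCU01153.

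**Figure D5:**
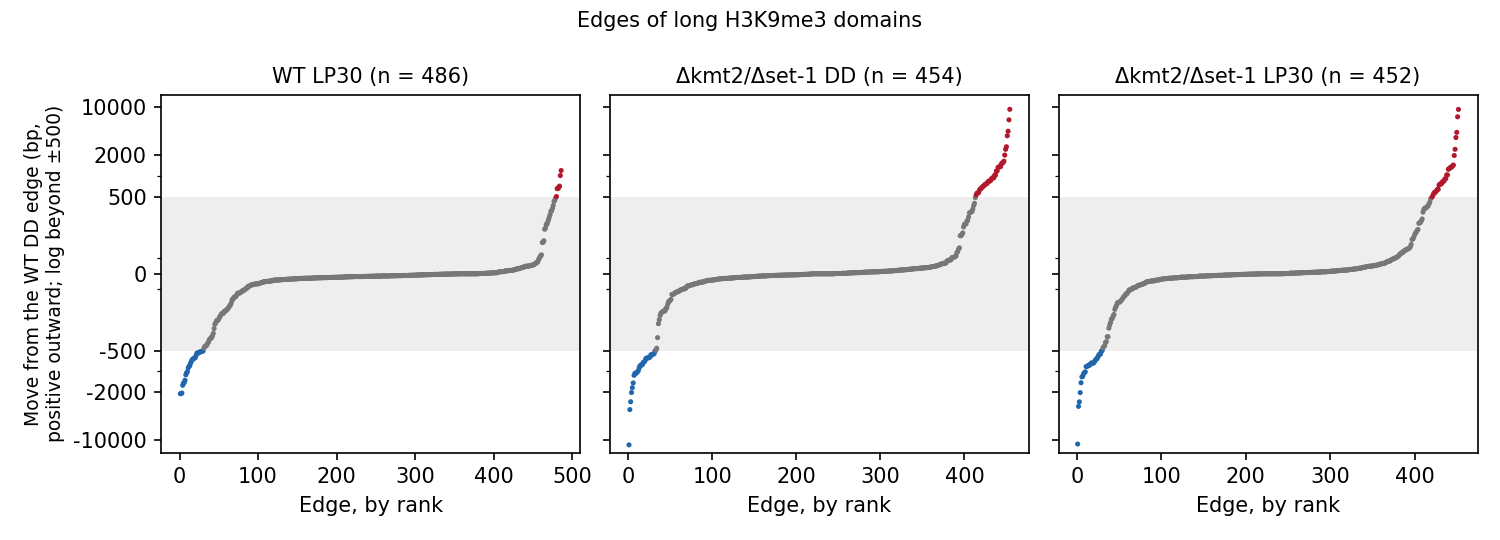
Move of each long-domain edge from its WT DD position in WT LP30 (486 edges), Δkmt2/Δset-1 DD (454) and Δkmt2/Δset-1 LP30 (452), ranked from most inward to most outward; the axis is in bp, positive outward, linear within 500 bp (grey band) and logarithmic beyond. Red points moved outward and blue points inward by over 500 bp, 7 and 30 in WT LP30, 41 and 32 in Δkmt2/Δset-1 DD, and 32 and 30 in Δkmt2/Δset-1 LP30.

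The converse was counted as well, starting from the long peaks of the other lists. Of 238 WT LP30 peaks of at least 5 kb, 4 lay over several WT DD peaks and 22 shared a WT DD peak with another LP30 peak. Of the 278 Δkmt2/Δset-1 DD peaks of at least 5 kb, 13 had no WT DD peak, 41 lay over 2 or more WT DD peaks and 235 overlapped a long WT DD domain. For Δkmt2/Δset-1 LP30 the counts were 12, 41 and 236 of 277. All 13 and all 12 unmatched peaks had a q of 0.01 or more, a class that held 59 long peaks in each mutant list against 25 in WT DD and 15 in WT LP30. The number of long peaks with a q under 0.01 was near constant, at 221 in WT DD, 223 in WT LP30, 219 in Δkmt2/Δset-1 DD and 218 in LP30.

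Finally, genes of the heterochromatin pathway and of the light response were placed relative to the long domains, as positions only. Of 12 pathway genes, 0 touched a long domain, where 2.06% of the 10397 genes on the chromosomes did. Their nearest long domain was 94.0 to 842.0 kb away, with a median of 213.7 kb against 58.9 kb over all genes. The closest was dim-8 (NCU06605), part of the complex that directs DIM-5 to its targets, and the farthest cdp-2 (NCU00738), a chromodomain protein of the HDAC complex HCHC. The H3K9 methyltransferase gene dim-5 (NCU04402) lay 260.4 kb away, the HP1 gene hpo (NCU04017) 265.0 kb and the DNA methyltransferase gene dim-2 (NCU02247) 172.8 kb.

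Of 9 light and clock genes 0 touched a long domain, and their distances ran from 0.3 to 302.8 kb with a median of 194.7 kb. The closest was al-3 (NCU01427), which encodes the geranylgeranyl diphosphate synthase of carotenoid synthesis and ended 309 bp before a long domain (chrV:4033223-4065459). The gene of the light-responsive factor sub-1 (NCU01154) lay 10.6 kb from the domain at NCU01153, and the photoreceptor gene wc-1 (NCU02356) 23.0 kb from its nearest domain. The clock gene frq (NCU02265) lay 199.2 kb away and the photoreceptor gene vvd (NCU03967) 277.6 kb.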

How the data were processed

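H3K9me3 and H3K4me3 ChIP-seq was performed on mycelia of WT and both mutant strains, with 2 replicates per condition. The authors mapped reads to NC12 with BWA and called peaks with macs2, broad for H3K9me3 and narrow for H3K4me3, at a permissive p-value. They deposited 8 lists that pool the replicates, with a fold enrichment (ratio to the control), a −log10 p-value, a −log10 q-value and a score of 10 times the −log10 q-value or p-value per peak. Values of a broad peak are means over the peak. The stated depth was 50 M single-end reads of 50 bp per sample, a nominal value. The lists give no read totals, so the depth reached by each sample and its precision are unknown. Lists normalized separately were compared by position and by a common minimum only.

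Starts are printed 1-based. An overlap of at least 1 bp counted as a match, 2 or more peaks over a domain as a split, and 1 peak over a domain and another WT DD peak as a fusion. Background percentages are over all 691 WT DD peaks, or their followed edges. Pileups were solved from fold enrichment and Poisson p-value with the pseudocount of 1 of macs2, and 97.3% to 98.2% of solved ChIP pileups were whole within 0.02. Gene spans, without strand, came from RefSeq's NC12 table. Python 3.11.15, pandas 2.3.3, numpy 2.4.6, scipy 1.17.1 and mpmath 1.4.1 were used, and the following of peaks was tested on simulated data.

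The members, gene lists and rules were chosen with earlier results of these data known, and the division at a q of 0.01 after the lists were seen. Regions named are the longest domain of each chromosome, those nearest the 5 kb limit, and per list those with the largest edge moves, lowest covered shares, most pieces and longest joined gaps. Genes named are those over or nearest these regions, genes wholly inside a long domain with a WT H3K4me3 peak, and both gene lists. Further regions were chosen after their values were seen. Base composition was not analysed here, as no genome sequence was at hand.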

Additional observations from a re-analysis of the deposited data

How the results depend on the processing

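No paired analysis was possible because each list pools its replicates, and for the same reason no replicate could be left out. Base composition was planned and not run. Values follow the order WT LP30, Δkmt2/Δset-1 DD and Δkmt2/Δset-1 LP30 unless said otherwise. Of 129 alternative values, 65 stayed within the range set for them and 64 moved, and this sorting did not assess a change of direction. Where the construction of the alternative (a higher limit, fewer peaks) does not show the cause, the cause was not tested. The 54 alternative edge counts form pairs of an outward and an inward count, from settings that share edges. In every pair inward moves outnumbered outward ones in WT LP30, and outward ones outnumbered inward in both mutant lists. These pairs do not include the edges that moved the same way in both mutant lists, 18 outward and 26 inward. The margin could be small, as the mutant in LP30 had 5 against 4 at the largest limit. With a limit of 100 bp in place of 500 bp, edges moved outward numbered 28, 70 and 76 and inward 83, 64 and 65. At 200 bp, WT LP30 had 25 outward and 65 inward and the mutant in LP30 56 and 47. At 1000 bp, outward edges were 2, 19 and 15 and inward 10, 11 and 10, and at 2000 bp 0, 7 and 5 against 3, 4 and 4. Including edges with a merged neighbour gave 13, 79 and 72 outward. Among domains of at least 10 kb, inward edges fell to 19 in WT LP30 and 21 in the mutant in DD. With q under 0.01 in both lists, splits were 4, 4 and 5, fusions were 0, 6 and 6, and 2 domains were unmatched in each mutant list. Requiring a fold of at least 1.5 in both lists left 2, 2 and 4 domains unmatched and WT LP30 covering 96.38% of their bases, and counting domains under 50% covered as unmatched left 2 in each mutant list. Joining peaks under 2 kb apart left 3, 2 and 2 splits, and counting only gaps of at least 1 kb left 3 in each mutant list. Only 10 and 13 fusions in the mutant were with another long domain. Starting from the long peaks of the other list, outward edges in the mutant numbered 81 and 73. In the same direction, counts added after the data were seen were 4, 41 and 41 peaks over several WT DD peaks and 22, 11 and 12 sharing a WT DD peak. With a minimum length of 20 kb, 98 domains remained. The other alternatives added after the data were seen were edges on chromosomes I to VII only, which changed no count of moved edges, and the H3K4me3 share without the domain over NCU09968, given with its result. Neighbouring peaks lay at least 807 bp apart in every list, which limits the splits that can be seen.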
